A study of Sus scrofa with 30 samples.

Results

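The miRNAs described here are ssc-miR-150 and ssc-miR-342, the only 2 rows of 411 in the plasma small RNA count table that carry those miRNA numbers. They were measured in 3 male Göttingen minipigs, about 4 months old, each bled 7 days (C7) and 1 day (C1) before total body irradiation (TBI) with 2.2 Gy, then 6 h after it (called 0d) and on 7 later days up to 20d. All 3 animals were irradiated with 60Co gamma rays at a dose lethal to most animals, and the study states that these 3 did not survive. They received dextrose by injection as controls of a countermeasure study, and were given antibiotics when neutrophils were low. There was no sham-irradiated group, so time since TBI cannot be told apart from repeated bleeding, anaesthesia, growth or care. C7 and C1 were pooled as pre-TBI, and the later time points form 4 phases: Early holds 0d, 1d, 3d and 7d, Mid holds 10d and 14d, the phase Late is 17d, and LR is 20d. The study drew them from a principal component analysis of the same libraries.

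miRNAs are short RNAs that guide Argonaute proteins to messenger RNAs and lower their translation or stability. miR-150 is abundant in mature B, T and NK cells and restrains the transcription factor MYB, and miR-342 is an intronic miRNA of the EVL gene that is enriched in lymphoid and other blood cells. Lymphocytes are among the most radiosensitive cells of the body, and plasma miR-150 has been studied as a marker of their loss after irradiation. Plasma miRNAs come from blood cells, platelets, vessel walls and organs, and fewer cells of a type and less miRNA released per cell cannot be told apart. The study separated plasma by centrifugation, and carry-over of intact cells or platelets was not tested. In RefSeq's gene table of the Sscrofa11.1 assembly, MIR342 lies within EVL. The table is of another build than the authors' ssc5, so it was used for names only.

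Of 30 libraries, 24 held at least 1000 counts, with totals from 24341 to 550316 counts and a median of 240612. The other 6 were those of minipig 3 from 3d to 20d, which held between 0 and 17 counts in all, with 0 counts of either miRNA. By the approximate rule of 3 counts over the total, a 0 among 17 counts allows a share of up to about 17.6%. Minipig 3 therefore gives no information after 1d, and every value from 3d on comes from minipigs 1 and 2. The libraries used were 6 pre-TBI, 10 Early, 4 Mid, 2 Late and 2 LR. The smallest were minipig 1 at C7 (24341 counts), minipig 1 at 17d (29159 counts) and minipig 2 at 10d (35762 counts).

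Relative to the other miRNAs counted in plasma, ssc-miR-342 rose at 3d, while ssc-miR-150 did not pass the test at any time point. The rise of ssc-miR-342 at 3d was 2.83-fold (log2 fold change 1.50, SE 0.27), and it was seen in both minipigs with a usable library. From 10d to 20d, ssc-miR-342 lay under the animal's own pre-TBI mean in 8 of 8 libraries, a difference that did not pass the adjusted test. ssc-miR-150, by contrast, was 0.99-fold its pre-TBI level at 3d (log2 fold change -0.010, SE 0.35). The levels in each library are shown in the plot of log2 CPM by time point.

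**Figure D1:**
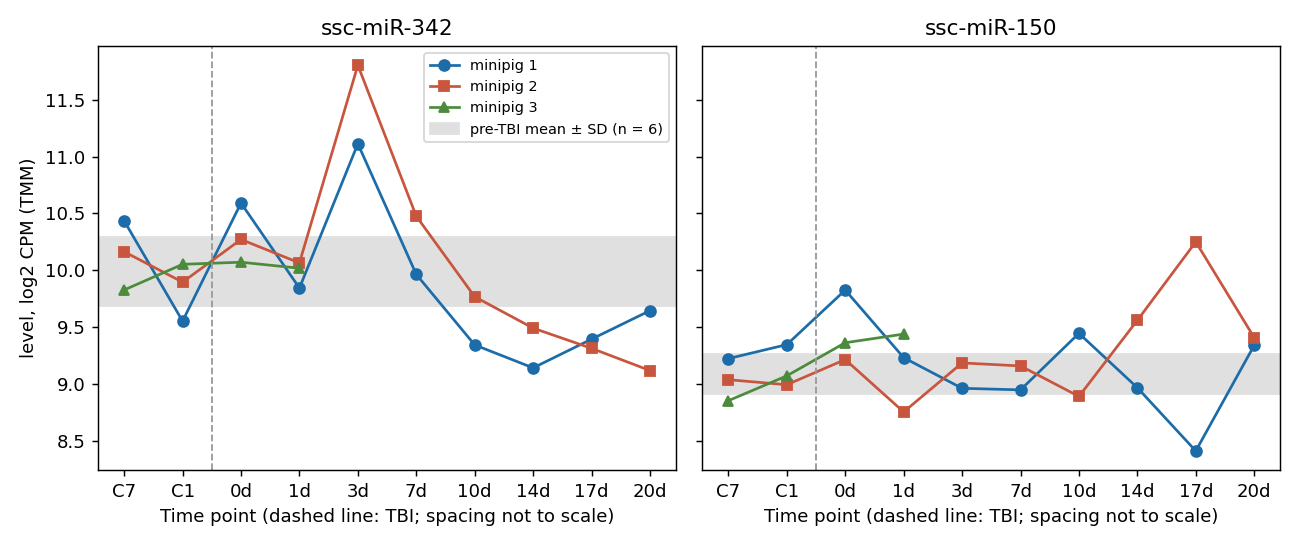
Level of ssc-miR-342 (left) and ssc-miR-150 (right) in each library as log2 CPM after TMM scaling, against time point, with 1 line per minipig and the pre-TBI mean ± SD (n = 6) as a grey band. The 2 libraries at 3d stand at 11.11 and 11.80 for ssc-miR-342, above all others, while for ssc-miR-150 the 2 libraries at 17d lie farthest apart, at 8.41 and 10.25.

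Both miRNAs were of middle abundance. Levels are given as log2 CPM, the count scaled to a common library size, after TMM scaling, which corrects for a few dominant rows. Such levels are relative to the other miRNAs counted, so a change in the amount per volume of plasma cannot be read from them. Over the 24 libraries ssc-miR-342 ranked 134th and ssc-miR-150 185th of 411 by mean log2 CPM. Before TBI, ssc-miR-342 had 28 and 89 counts at C7 and C1 in minipig 1, 264 and 273 in minipig 2, and 513 and 505 in minipig 3. Its log2 CPM was 10.43 and 9.55, 10.16 and 9.89, and 9.83 and 10.05 in the same order, a mean of 9.99 ± 0.30 (SD, n = 6). The 2 libraries of minipig 1 were the highest and the lowest of the 6, so the baseline of this animal was the least settled. The pre-TBI share of all counts was between 0.0637% and 0.124%.

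ssc-miR-150 had a lower level and a smaller SD before TBI. It had 12 and 77 counts at C7 and C1 in minipig 1, 120 and 145 in minipig 2, and 259 and 254 in minipig 3. Its log2 CPM was 9.22 and 9.35, 9.04 and 8.99, and 8.85 and 9.07, a mean of 9.09 ± 0.17 (SD, n = 6). The order of the animals was minipig 1 above minipig 2 above minipig 3 by their own means (9.28, 9.01 and 8.96), and the last 2 differed by less than C7 and C1 of minipig 3. The share of counts was between 0.0493% and 0.0627%. For the library with 12 counts the 95% Wilson interval of the share ran from 0.0282% to 0.0862%, and such intervals leave out everything but counting error, as duplicated molecules could not be recognised.

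The first question was whether either miRNA differed between the phases and pre-TBI, tested with edgeR's quasi-likelihood test over all 411 rows and called at a Benjamini-Hochberg adjusted p under 0.05. Neither miRNA was called in any phase, at an adjusted or an unadjusted p under 0.05. In Early, ssc-miR-342 had a mean log2 CPM of 10.42 ± 0.61 (SD, n = 10) and a log2 fold change of 0.56 (SE 0.27, p = 0.0508, adjusted p = 0.261). The lowest of the 10 libraries was at 9.84, and its upper end was set by the 3d libraries. Among all rows, 0% were called in Early and 18.7% had an unadjusted p under 0.05.

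After Early, the estimates for ssc-miR-342 were below pre-TBI. Its 4 Mid libraries were at 9.34 and 9.14 in minipig 1 and at 9.77 and 9.49 in minipig 2, a mean of 9.43 ± 0.26 (SD). The log2 fold change was -0.56 (SE 0.34, adjusted p = 0.844) in Mid, -0.66 (SE 0.46, adjusted p = 0.387) in Late and -0.60 (SE 0.43, adjusted p = 0.593) in LR. Of these 8 libraries, 6 lay under the lowest pre-TBI library, and those of minipig 2 at 10d (9.77) and of minipig 1 at 20d (9.64) did not.

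For ssc-miR-150 the log2 fold change was 0.15 (SE 0.21) in Early, 0.16 (SE 0.27) in Mid, 0.58 (SE 0.34) in Late and 0.29 (SE 0.33) in LR, with adjusted p of 0.696, 0.978, 0.298 and 0.711. Its mean log2 CPM was 9.21 ± 0.30 (SD, n = 10) in Early and 9.21 ± 0.34 (SD, n = 4) in Mid. Over all rows, called shares were 0% in Mid, 4.38% in Late and 0% in LR, and the shares at an unadjusted p under 0.05 were 5.35%, 22.6% and 5.6%.

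Time points were then set against pre-TBI one by one. At 3d, ssc-miR-342 had 580 counts in minipig 1 and 938 in minipig 2, or 0.228% (95% Wilson interval 0.210% to 0.247%) and 0.360% (0.338% to 0.384%) of all counts. Its log2 CPM was 11.11 and 11.80, which is 1.12 and 1.77 above the own pre-TBI means of 9.99 and 10.03. Both libraries were above every other library of the 24, which held for 2.43% of the 411 rows, and both were above all 6 pre-TBI libraries, which held for 7.06%. The adjusted p was 0.00947 (unadjusted 2.3e-05, edgeR), the smallest of the 411 rows at 3d, and the log2 fold change was the 8th highest. At 3d, 1.22% of rows were called, all 5 of them higher, and 8.52% had an unadjusted p under 0.05.

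The 3d call rested on 2 animals, and the fit had no term for the animal, so repeated libraries of the same animal counted as independent. Without minipig 2 the log2 fold change was 1.19 (adjusted p = 0.788), without minipig 3, which has pre-TBI libraries only in this comparison, it was 1.54 (adjusted p = 0.0931), and without minipig 1 it was 1.79 and remained under the threshold. Taking C7 alone as the baseline gave 1.40 (adjusted p = 0.0976). The direction was the same under all 15 alternatives and 10 of them kept the call, as the plot of the 3d value by setting shows. Among those 10 are 2 filter settings, no filter and CPM above 10 in at least 3 libraries. Both kept all 411 rows and repeat the reported fit, so they could not differ from it.

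**Figure D2:**
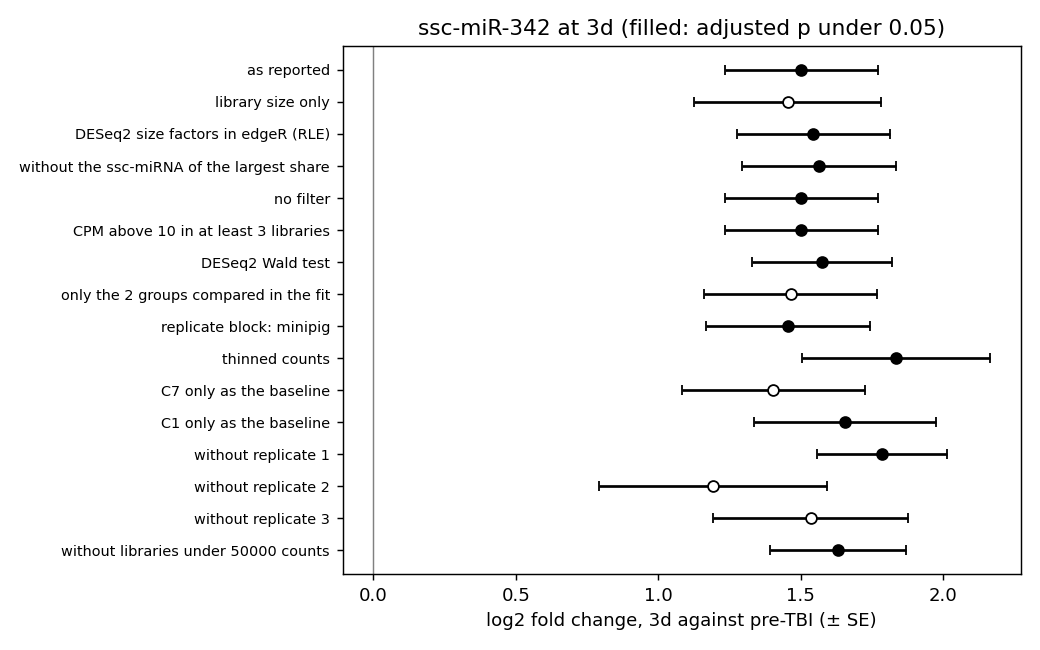
Log2 fold change of ssc-miR-342 at 3d against pre-TBI, with its SE, as reported (top) and under each of 15 alternatives. The 2 filter settings among them repeat the reported fit. Filled points have an adjusted p under 0.05; the values run from 1.19 without replicate 2 to 1.83 with thinned counts, and all lie above 0.

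The rise at 3d was bounded on both sides by lower samples. Against 1d, ssc-miR-342 at 3d was higher by 1.53 on the log2 scale (SE 0.32, unadjusted p = 0.000124, adjusted p = 0.0508), and against 3d, it was lower at 7d by a log2 fold change of -1.26 (SE 0.36, unadjusted p = 0.00228, adjusted p = 0.556). These comparisons were added after the values were seen. Each had the smallest p of the 411 rows, but no row was called in either (0% and 0%). At 7d the log2 CPM was 9.96 in minipig 1 and 10.48 in minipig 2, so the first was near its own pre-TBI mean and the second was 0.45 above it.

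At 0d, ssc-miR-342 was at 10.59, 10.27 and 10.07 in minipigs 1, 2 and 3, and at 1d at 9.84, 10.06 and 10.02, with log2 fold changes of 0.32 (SE 0.25) and -0.024 (SE 0.25). These libraries overlapped the pre-TBI range of 9.55 to 10.43 in all animals but minipig 1 at 0d. Rows called at 0d and 1d were 0% and 0%, and 8.52% and 12.2% had an unadjusted p under 0.05.

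From 10d the estimates for ssc-miR-342 were negative. Its log2 fold change was -0.44 (SE 0.31) at 10d, -0.68 (SE 0.30) at 14d, -0.66 (SE 0.32) at 17d and -0.60 (SE 0.30) at 20d. The unadjusted p was 0.038 at 14d and 0.0513 and 0.0584 at 17d and 20d, with adjusted p of 0.534, 0.21 and 0.55. All 8 libraries lay under the animal's own pre-TBI mean, which held for 2.68% of rows. The shares of rows called were 0%, 0.243%, 4.87% and 0.73% at these 4 time points in order, and the shares with an unadjusted p under 0.05 were 7.3%, 9%, 23.8% and 7.06%.

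In order of mean log2 CPM, ssc-miR-342 stood highest at 3d (11.46), then 0d (10.31), 7d (10.22), C7 (10.14), 1d (9.97), C1 (9.83), 10d (9.55), 20d (9.38), 17d (9.35) and 14d (9.32). Below 3d, each pair of neighbours in this order differed by less than the range within the time points compared.

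ssc-miR-150 held no such order. At 3d it took 0.0507% of the counts in minipig 1 and 0.058% in minipig 2, and its log2 CPM was 8.96 and 9.18, which is 0.32 under and 0.17 over the own pre-TBI means. At 0d it was at 9.83, 9.21 and 9.36 in minipigs 1, 2 and 3, each above its own pre-TBI mean, and the log2 fold change was 0.41 (SE 0.30, adjusted p = 0.519). At 1d the animals diverged, with 9.23, 8.75 and 9.44. At 7d the log2 fold change was -0.031 (SE 0.35), and the shares of all rows called and with an unadjusted p under 0.05 were 0% and 8.27%. Its time points ranged only from 9.04 (C7) to 9.47 (0d) in mean log2 CPM.

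**Figure D3:**
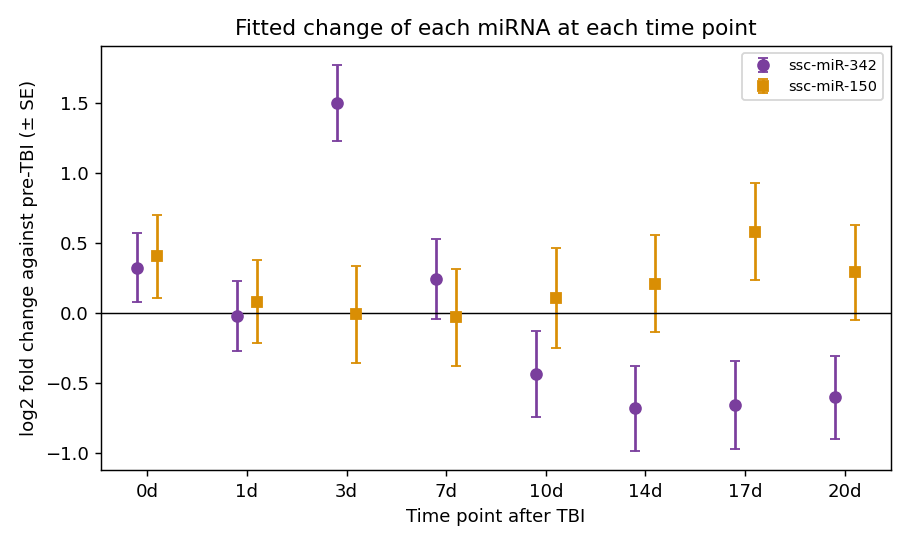
Log2 fold change of ssc-miR-342 and ssc-miR-150 at each time point against pre-TBI, with its SE, from 1 edgeR fit. ssc-miR-342 stands at 1.50 at 3d and at -0.68 at 14d, while ssc-miR-150 stays between -0.031 and 0.58.

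At 17d, ssc-miR-150 went opposite ways in the 2 animals. Minipig 1 had 7 counts among 29159, or 0.024% (95% Wilson interval 0.0116% to 0.0495%), and a log2 CPM of 8.41, its lowest of all libraries. Minipig 2 had 77 counts among 63441, or 0.121% (0.0971% to 0.152%), and 10.25, its highest. The intervals do not overlap. Without minipig 1 the log2 fold change at 17d was 1.23 (adjusted p = 0.0523 in edgeR's time-point fit), and without minipig 2 it was -1.02 (adjusted p = 0.175), each from 1 library assumed to vary like the other groups. In the phase fit, where Late holds these same libraries, the values were 1.23 (adjusted p = 0.027) and -1.01 (adjusted p = 0.159), so the call without minipig 1 depends on the fit. The mean of these libraries, 9.33 ± 1.30 (SD, n = 2), describes neither. At 20d the animals were close again, at 9.34 and 9.41.

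The library of minipig 2 at 17d was also high in ssc-miR-181a and ssc-miR-181b, miRNAs enriched in leukocytes. ssc-miR-181a had 7926 counts and a log2 CPM of 16.93 there against 9.05 in minipig 1 at 17d, and between 10.68 and 11.64 before TBI. ssc-miR-181b had 762 counts and 13.55 there against 8.77 in minipig 1, and between 9.44 and 9.97 before TBI. At 20d ssc-miR-181a was still at 14.01 in minipig 2, against 10.52 in minipig 1. Some other leukocyte-enriched rows, named next, were lower in the 17d library of minipig 2 than at C7 and C1 of this animal. ssc-miR-146b was at 10.21 against 13.52 and 14.79, and ssc-miR-146a-5p at 10.30 against 13.61 and 14.85. ssc-miR-142-5p was at 7.83 against 10.29 and 9.53, and ssc-miR-142-3p at 6.88 against 7.83 and 7.82. Of 12 leukocyte-enriched rows (miR-142, miR-146, miR-155 and miR-181; no row is named miR-223), 2 rose in Late, ssc-miR-181a (log2 fold change 4.56, adjusted p = 0.00125) and ssc-miR-181b (2.93, adjusted p = 0.00125), and both turned negative without minipig 2 (-2.59 and -1.18). At an unadjusted p under 0.05 in edgeR's test, 4 of the 12 rows were higher in Late and 0 lower. Beside the miR-181 rows these were ssc-miR-155-3p (2.34) and ssc-miR-146a-3p (1.83). In Late, 4.38% of all rows were called, and 22.6% had an unadjusted p under 0.05. The list's median log2 fold change was 1.46 beside 0.076 over all rows. That median joins unlike animals, since ssc-miR-146b was at 16.64 in minipig 1 at 17d. Some rows of the list had negative values in Late, such as ssc-miR-142-5p (-0.84) and ssc-miR-181d-3p (-0.45). At 3d, 0 of these 12 rows passed, adjusted or unadjusted, in edgeR's test, with a median of 0.18 beside -0.072 over all rows.

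Because both miRNAs are counted in the same library, their ratio does not depend on scaling. Before TBI, ssc-miR-342 had 2.33 and 1.16 counts for each count of ssc-miR-150 in minipig 1, 2.20 and 1.88 in minipig 2, and 1.98 and 1.99 in minipig 3. At 3d the ratio was 4.50 and 6.21, above every other library. At 14d it was 1.13 and 0.953, and at 20d it was 1.24 and 0.816, so the counts were close to equal. The 17d libraries gave 2 in minipig 1 and 0.519 in minipig 2.

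Tested as the log2 ratio of ssc-miR-150 to ssc-miR-342 with a pseudocount of 0.5, the mean change within minipigs was -0.22 in Early, 0.64 in Mid, 0.85 in Late and 0.85 in LR. Exact permutation tests, two-sided, with time labels moved within each minipig, gave p = 0.436, 0.0556, 0.333 and 0.333, and adjusted over these 4 comparisons p = 0.436, 0.222, 0.436 and 0.436. The Mid value is the smallest p that its 36 arrangements allow, and Late and LR could not go below 0.111. At 3d the change was -1.54 with an exact permutation p = 0.111, the smallest that 9 arrangements allow, and adjusted over the 8 time points p = 0.593, so the design cannot reach 0.05 for this difference.

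**Figure D4:**
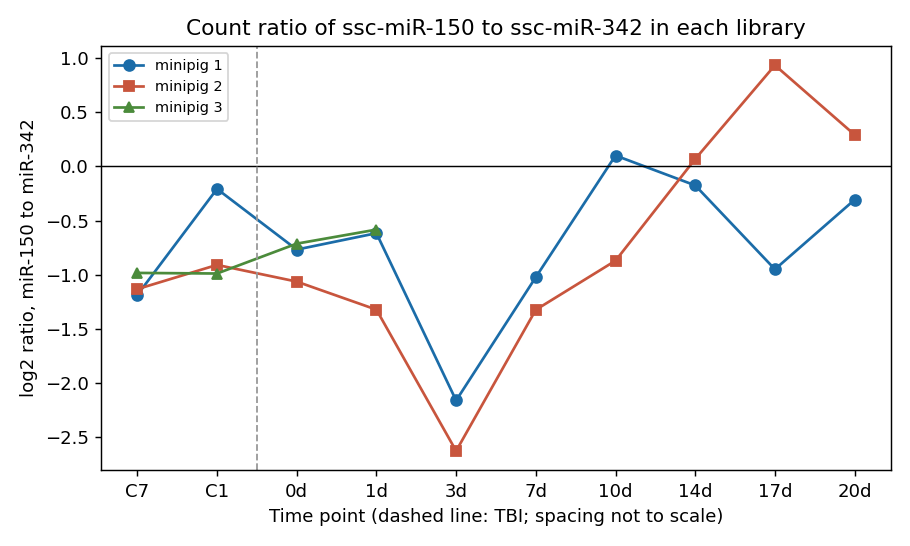
Log2 ratio of ssc-miR-150 to ssc-miR-342 counts (pseudocount 0.5) in each library, with 1 line per minipig. The 2 libraries at 3d are lowest, at -2.16 and -2.63, and minipig 2 at 17d is highest, at 0.94.

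Averaged over the whole course, neither miRNA differed from pre-TBI beyond the spread within animals. Each minipig had equal weight, though minipig 3 had only 0d and 1d after TBI. Such a mean cannot show changes that go opposite ways at different times. Log2 CPM after TBI minus pre-TBI, averaged over the 3 minipigs, was 0.19 for ssc-miR-150 and -0.00028 for ssc-miR-342, with two-sided exact permutation p = 0.271 and 0.999 over 12150 arrangements, and 0.543 and 0.999 adjusted over both. Libraries of Early and those from 10d on lay mostly on opposite sides for ssc-miR-342, since 8 of 10 Early libraries were above the own pre-TBI mean and 0 of 8 later ones were. For ssc-miR-150 the same counts were 6 of 10 and 5 of 8.

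Later phases were also set against Early, a comparison added after the values were seen. ssc-miR-342 was lower than in Early in Late (log2 fold change -1.22, SE 0.46, adjusted p = 0.0443), and the value was -1.12 in Mid (SE 0.33, adjusted p = 0.0713) and -1.16 in LR (SE 0.43, adjusted p = 0.997). In Late against Early, 31.9% of all rows were called, so this call is 1 of many, and it was lost without the libraries under 50000 counts (-1.18, adjusted p = 0.371). Called shares were 0% in Mid and 0.243% in LR against Early. ssc-miR-150 stood at 0.43 in Late, 0.012 in Mid and 0.14 in LR against Early and was not called. In Late against Early it was called in opposite directions when 1 minipig was left out, at 1.09 without minipig 1 (adjusted p = 0.0359) and -1.16 without minipig 2 (adjusted p = 0.0474), and it was called at 1.14 without the libraries under 50000 counts (adjusted p = 0.00656).

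Across the 24 libraries the 2 miRNAs did not move together, with a Pearson r of -0.094 between their log2 CPM. The rows most like ssc-miR-342 were ssc-miR-28-3p (r = 0.91), ssc-miR-191 (0.79), ssc-miR-10a-5p (0.70), ssc-miR-22-3p (0.70) and ssc-miR-17-5p (0.70). The libraries share 3 animals and their depth, so r is a description. Without the 3d libraries r with ssc-miR-28-3p was 0.85 over 22 libraries and still the highest of all rows, while ssc-miR-10a-5p and ssc-miR-22-3p went to 0.47 and 0.44.

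Several of these rows were high at 3d too, which their choice by r over libraries that include 3d partly builds in. ssc-miR-191, an abundant platelet miRNA, had 9788 counts in minipig 1 and 19037 in minipig 2 and rose by a log2 fold change of 2.08 (SE 0.45, adjusted p = 0.0249). ssc-miR-10a-5p, encoded in a HOX cluster, rose by 1.70 (adjusted p = 0.0108). ssc-miR-28-3p had 1073 and 992 counts and a log2 fold change of 1.39 (adjusted p = 0.0666), and ssc-miR-22-3p one of 1.90 (adjusted p = 0.0666). ssc-miR-126-5p (1.66, adjusted p = 0.0282, and 0.0625 with the minipig as a block), an endothelial and platelet miRNA, and ssc-miR-215 (1.35, adjusted p = 0.0406) complete the 5 rows called at 3d, named here after their values were seen. With library sizes alone as the scaling, ssc-miR-10a-5p was the only row called at 3d.

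**Figure D5:**
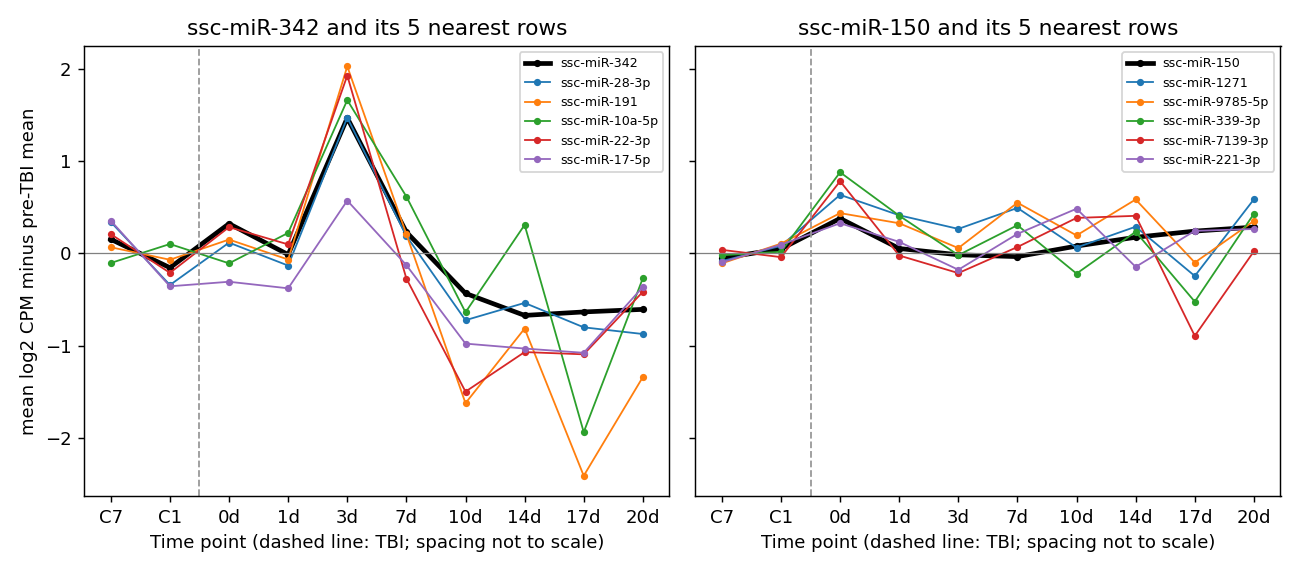
Mean log2 CPM at each time point minus the pre-TBI mean, for ssc-miR-342 (left, black) and ssc-miR-150 (right, black) with the 5 rows of highest Pearson r to each. On the left 5 of 6 lines peak together at 3d above 1, and on the right all lines stay within 1 unit of 0. The rows were picked by r over these same libraries, so likeness of the lines is partly built in.

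The rows most like ssc-miR-150 were ssc-miR-1271 (r = 0.69), ssc-miR-9785-5p (0.65), ssc-miR-339-3p (0.63), ssc-miR-7139-3p (0.63) and ssc-miR-221-3p (0.63). None was called at 3d, with log2 fold changes from -0.26 to 0.26, where 1.22% of all rows were.

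Markers of other sources moved with the 3d libraries to different extents. Of 9 platelet-enriched rows (miR-126, miR-191, miR-425, miR-28 and miR-151), 2 rose at 3d and 3 had an unadjusted p under 0.05, all higher, beside 1.22% and 8.52% of all rows. The list's median log2 fold change was 0.30 beside -0.072 over all rows. Their summed CPM was 52119 and 85538 at 3d in the 2 animals and between 20146 and 29033 before TBI, so these ranges did not overlap. At 3d most of this sum was ssc-miR-191, and without that row the sum was 13165 to 14888 at 3d and 8907 to 14424 before TBI, ranges that overlap. No row of the list was at 0 at 3d. Arms and relatives differed, since ssc-miR-126-3p had a log2 fold change of -0.13 and ssc-miR-425-5p one of -0.92. The part of platelet-derived RNA in the 3d level of ssc-miR-342 was not tested.

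Erythroid rows (miR-451, miR-144 and miR-486) gave 0 of 3 called at 3d in edgeR's test, adjusted or unadjusted. Their summed CPM of 32138 and 57337 lay within the pre-TBI range of 8977 to 88288 over all animals. Minipig 1 was above its own sums at C7 and C1 (22652 and 16262), and minipig 2 lay between its own (88288 and 21760). The log2 ratio of ssc-miR-451 to ssc-miR-23a, used as an index of haemolysis, was 1.46 and 2.36 at 3d. Before TBI it was between -1.19 and 3.42 over all animals, so the 3d libraries were inside that pooled range. Minipig 1 at 3d was above both of its own pre-TBI values (-1.19 and 0.015), while minipig 2 lay between its own (3.42 and 1.13). The part of haemolysis in the 3d level of ssc-miR-342 was not tested. Of 5 liver rows (miR-122, miR-192 and miR-194), 0 were called and 1 had an unadjusted p under 0.05 in edgeR's test. This was ssc-miR-192 (1.14, adjusted p = 0.0666, and 0.0325 with the minipig as a block). The summed CPM of 8406 and 8751 was above the pre-TBI range of 4324 to 5993, but the rows did not rise together. ssc-miR-122 (-0.34), ssc-miR-194a (-0.46) and ssc-miR-194b-3p (-0.35) had negative log2 fold changes, and ssc-miR-194b-5p stood at 0.30. The list's median was -0.34 beside -0.072 over all rows. Of 8 muscle rows (miR-1, miR-133, miR-206, miR-208 and miR-499), 0 were called, and 1 was lower at an unadjusted p under 0.05, with a summed CPM of 1818 and 2228 against 1519 to 4053.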

How the data were processed

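Plasma small RNA of 3 minipigs was sequenced at 10 time points. According to the study's methods and the submitters' processing notes, TruSeq small RNA libraries were demultiplexed with bcl2fastq, trimmed with Cutadapt and aligned with Bowtie2 2.2.3.0 to ssc5 and then to miRBase, and miRDeep2 quantified the ssc-miRNAs. The authors deposited raw counts per ssc-miRNA, without normalization, for 411 rows; the methods state a filter on low counts and CPM without saying whether it made this table, and a row's name gives no arm where none is printed. Reads were not analysed here.

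Libraries under 1000 counts were left out, which removed 6 of 30. Counts were fitted with edgeR 4.0.16 (R 4.3.3): TMM scaling, CPM above 0.5 in at least 3 libraries (all 411 rows passed), quasi-likelihood test, Benjamini-Hochberg adjustment over all rows, 5 groups for phases and 9 for time points. Log2 CPM used a prior count of 2. SEs were taken from each log2 fold change and its F value (estimate over root F). The common biological coefficient of variation was 0.496. A library with 20 counts of a miRNA has a large counting error, which limits the small libraries. DESeq2 1.42.0 was an alternative. Libraries of 1 minipig pair by the animal in the labels; their deviations from the phase means correlated at a mean r of 0.169 over 78 pairs within and -0.102 over 130 pairs between animals. No 2 libraries of a phase agreed within sampling noise. P-values measure the spread between libraries of 3 animals sampled repeatedly. Ratios used exact permutations in Python 3.11.15. The scripts were tested on simulated data.

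Named rows were the 2 miRNAs, the 5 rows most like each by Pearson r, and members of lists of blood cell, liver and muscle miRNAs. The members and lists were chosen with earlier results of these data known. Ratios to ssc-miR-223 were planned and not computed, since no row used here has that name.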

Additional observations from a re-analysis of the deposited data

Results flagged for a closer look

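Of 9 sets of 4 to 10 libraries checked for a library far from the rest, 1 was flagged, and chance flags about 5% of such sets. It was the log2 ratio of ssc-miR-150 to ssc-miR-342 before TBI, where minipig 1 at C1 stood at -0.21, highest of 6. That library had 77 counts of ssc-miR-150 and 89 of ssc-miR-342, and its pair from C7 had 12 and 28. The other 5 libraries lay between -1.19 and -0.91.

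The change of ssc-miR-342 differed between phases by a test of the difference itself, added after the values were seen. Late was lower than Early by a log2 fold change of -1.22 (adjusted p = 0.0443, edgeR). In this comparison 31.9% of all 411 rows were called, and ssc-miR-342 ranked 124th of them all by p. All 15 alternatives kept the direction, from -1.43 to -1.18, and 7 of them kept the adjusted p under 0.05, with a range from 0.0168 to 0.371. The 2 filter settings that repeat the reported fit are among those 7. Without minipig 1 the adjusted p was 0.365 and without minipig 2 it was 0.116.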

How the results depend on the processing

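The rise of ssc-miR-342 at 3d kept its direction under all 15 alternatives, of which the 2 filter settings repeat the reported fit. Its adjusted p rose above 0.05 with library sizes alone (1.45), with only the 2 groups in the fit (1.47) and with C7 as the baseline (1.40), and leaving out 1 minipig gave 1.19 to 1.79. The count of rows called at 3d, 5 here, was 1 with library sizes alone, 2 with C1 as the baseline, 0 or 1 without 1 minipig, 0 with C7 as the baseline or only the 2 groups, 21 in DESeq2, and 13 without the 3 libraries under 50000 counts, an alternative chosen after seeing the data. That alternative gave ssc-miR-150 a call in Late, at 17d and in Late against Early (1.21, 1.21 and 1.14). The count called in Late, 18 here, ran from 0 with C7 as the baseline to 77 without minipig 2.

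Of 677 alternative values, 582 kept direction and side of the threshold, among them those of the 2 filter settings that repeat the reported fit. A further 36 changed sign, most of them close to 0. For ssc-miR-150 with library sizes alone these were 0.11 at 7d, -0.10 at 10d and 0.16 for 7d against 3d. For ssc-miR-150 at 3d they were 0.024 with RLE factors, 0.043 without the row of the largest share, 0.037 in DESeq2, 0.21 with thinned counts, 0.083 with C7 as the baseline and 0.048 without the small libraries. For ssc-miR-150 at 3d against 1d they were 0.019 without the row of the largest share, 0.011 with 2 groups, 0.010 with C7 as the baseline and 0.023 without the small libraries, and thinned counts gave -0.062 for LR against Early. For ssc-miR-342 at 1d they were 0.011 with RLE factors, 0.041 in DESeq2, 0.10 with thinned counts and 0.13 with C1 as the baseline. The cause was not tested.

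Leaving out 1 minipig gave ssc-miR-342 a range from -0.11 to 0.039 at 1d, from -0.017 to 0.38 at 7d and from -0.053 to 0.057 over the whole course. For ssc-miR-150 the ranges were -0.099 to 0.16 at 1d, -0.10 to 0.16 at 3d, -0.17 to 0.061 at 7d, -0.098 to 0.30 at 10d, -0.077 to 0.47 at 14d, -1.02 to 1.23 at 17d and -1.01 to 1.23 in Late. Against Early they were -0.028 to 0.12 in Mid, -1.16 to 1.09 in Late and -0.087 to 0.30 in LR, and for 3d against 1d -0.27 to 0.089. The Late range was -0.25 to 1.96 for the log2 ratio, -2.59 to 5.43 for ssc-miR-181a and -1.18 to 3.77 for ssc-miR-181b. Where this left 1 library in a group, it was assumed to vary like the others.

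With the minipig as a replicate block, ssc-miR-342 stood at 0.48, -0.70, -0.79 and -0.72 in Early, Mid, Late and LR and at 1.46 at 3d, and ssc-miR-150 at 0.16, 0.18, 0.61 and 0.31. The block changed no call of either miRNA. Library sizes alone moved the median of all rows from 0.076 to -0.21 in Late and from -0.085 to -0.40 at 0d. Ratios to ssc-miR-223 were not run. Depth limits ssc-miR-150 most, with 7 counts at 17d in minipig 1.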
